A study of Homo sapiens with 12 samples.

Results

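The human genome encodes, beside HDAC3, 10 zinc-dependent histone deacetylase genes: HDAC1, HDAC2, HDAC4, HDAC5, HDAC6, HDAC7, HDAC8, HDAC9, HDAC10 and HDAC11. Their transcripts were followed in lymphoma cells given an inhibitor of HDAC3, to ask whether the expression of other deacetylases shifts when this enzyme is inhibited. The members were picked by symbol among the 78892 genes of the deposited table, by a rule that uses no measured value, and each of the 10 passed the filter on low counts that left 17869 genes for testing. With the inhibitor, HDAC11 rose 3.06-fold, HDAC9 2.07-fold, HDAC5 1.49-fold, HDAC7 1.39-fold and HDAC6 1.16-fold, and HDAC10, read from very few counts, fell. HDAC1, HDAC2 and HDAC8, the class I relatives of HDAC3, did not pass the test.

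OCI-Ly7 is an established human lymphoma line, derived from a diffuse large B-cell lymphoma and assigned to the germinal-centre type. Poly(A) RNA was sequenced from 4 groups of 3 libraries harvested on day 5, and each group was dosed on the same days with drug or with a dose of 0. Vehicle cells (vehicle) received neither drug. Inhibitor cells (HDAC3i) received 15 µM HDAC3 inhibitor on days 2 and 4. 5-azacitidine cells (AZA) received 100 nM 5-azacitidine daily from day 0 to day 4. Combination cells (HDAC3i_AZA) received both. The sources used here do not name the inhibitor's compound. 5-azacitidine, an analogue of cytidine, enters nucleic acids and traps DNA methyltransferases. A single cell line was used. The labels do not say whether libraries of the same group are separate cultures, so p-values measure only the spread between these samples, and it may be technical.

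Histone deacetylases remove acetyl groups from lysines, and those on histones are linked with closed chromatin and low transcription. Class I enzymes (HDAC1, HDAC2, HDAC3 and HDAC8) are mainly nuclear and highly active. HDAC1 and HDAC2 work inside the SIN3, NuRD, CoREST and MiDAC complexes, whereas HDAC3 works with the NCoR and SMRT co-repressors. Class IIa enzymes (HDAC4, HDAC5, HDAC7 and HDAC9) have little catalytic activity of their own, bind transcription factors of the MEF2 family, recruit NCoR/SMRT with HDAC3, and leave the nucleus when kinases phosphorylate them and 14-3-3 proteins hold them. Class IIb holds the mainly cytoplasmic HDAC6 and HDAC10, and HDAC11 stands alone as class IV. Germinal-centre B cells depend on BCL6, which represses genes partly through the NCoR/SMRT complexes that contain HDAC3.

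Library totals lay between 35947872 and 36337086 counts, and levels are given as counts per 1000000 (CPM), scaled with TMM factors that correct for composition. The share of counts from mitochondrial genes was 9.59% to 10.5% in vehicle, 12.1% to 13.0% in inhibitor cells, 10.01% to 13.8% with 5-azacitidine and 12.5% to 15.3% with both. It was highest in 5-azacitidine replicate 1 and combination replicate 3, and without these 2 libraries the members called in the comparisons below were the same, except that HDAC2 was added against vehicle with the inhibitor (log2 0.12, edgeR adjusted p = 0.049) and with the combination (log2 0.18, edgeR adjusted p = 0.0075). The B cell identity was checked on 8 markers, each above 1 CPM in every group. Their summed level was 3006 to 3175 CPM in vehicle, 3929 to 3998 in inhibitor cells, 3138 to 3364 in 5-azacitidine cells and 3971 to 4070 in the combination. With the inhibitor against vehicle 5 of the 8 were called higher and 2 lower, beside 26.4% and 24.9% of all genes tested. MS4A1 went from 872 to 1446 CPM, whereas BCL6 fell from 238 to 210 CPM and MME from 52.4 to 43.4 CPM. Markers of T and NK cells summed to 1.80 to 2.62, 8.46 to 10.1, 2.49 to 2.54 and 13.6 to 15.3 CPM in the same order. Of these 7 markers, CD8A was at 0 in every group, and CD2 and GNLY were at 0 in vehicle, inhibitor and 5-azacitidine cells. The other 4 were tested, and each was called higher with the inhibitor against vehicle, beside 26.4% of all genes. CD3E went from 1.03 to 6.49 CPM, CD3G from 0.0927 to 0.874, CD3D from 0.0188 to 0.203 and NKG7 from 1.01 to 1.78. Markers of monocytes and granulocytes summed to 0.327 to 0.497, 1.41 to 2.01, 0.137 to 0.380 and 2.63 to 3.33 CPM, with S100A8 at 0 in every group. FCGR3A and S100A9 were at 0 in vehicle, inhibitor and 5-azacitidine cells. From vehicle to inhibitor cells LYZ went from 0.0188 to 0.966 CPM and CSF1R from 0.0184 to 0.368, whereas CD14 went from 0.360 to 0.303. Of these 3, the ones tested in this list, LYZ and CSF1R were called higher and CD14 was not called. The T and NK sum and the monocyte and granulocyte sum were higher in inhibitor and combination cells than in vehicle and 5-azacitidine cells, as were HDAC9 and HDAC11. From inhibitor to combination cells both sums rose further. HDAC11 went from 2.44 to 3.13 CPM and HDAC9 from 47.95 to 43.1 CPM, and neither passed the test there (edgeR adjusted p = 0.305 and 0.165). The part of these markers in the HDAC9 and HDAC11 results was not tested. In bulk RNA, fewer cells of a type and less RNA per cell cannot be told apart.

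HDAC3 itself, the target of the inhibitor, had a level of 88.6 ± 0.676 CPM in vehicle (SD, n = 3). It was at 90.1 ± 2.76 in inhibitor cells, 85.8 ± 3.28 in 5-azacitidine cells and 92.8 ± 0.494 in cells given both. Its transcript did not pass the test in any comparison (inhibitor against vehicle, log2 0.02, edgeR adjusted p = 0.731). It came nearest in the combination against 5-azacitidine, whose libraries did not overlap (log2 0.11, 95% interval 0.01 to 0.22, edgeR adjusted p = 0.0635). There it passed in 4 of 23 alternatives, 1 of them leaving out 5-azacitidine replicate 3 (adjusted p = 0.0424, over a range of 0.00204 to 1.0), and for the combination against vehicle in 1 of 23 (adjusted p from 0.00952 to 1.0). A drug that acts on the enzyme need not move its transcript, so this level does not check the labels.

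Promoter sequences of 3 of the 5 members that rose with the inhibitor are shown, HDAC11, HDAC9 and HDAC7, because their upstream letters differ widely. RefSeq (GRCh38.p14) held 19 promoter windows for 9 members, and HDAC5 was not matched. Each sequence is the 250 bases before an annotated start, 5′ to 3′ along the gene. Capitals mark GC boxes (GGGCGG) and CCAAT boxes (CCAAT), searched on both strands, with overlapping matches counted. The first is the HDAC11 window, chr3:13480056-13480305 on the plus strand, inside the span of the gene given below.
HDAC11: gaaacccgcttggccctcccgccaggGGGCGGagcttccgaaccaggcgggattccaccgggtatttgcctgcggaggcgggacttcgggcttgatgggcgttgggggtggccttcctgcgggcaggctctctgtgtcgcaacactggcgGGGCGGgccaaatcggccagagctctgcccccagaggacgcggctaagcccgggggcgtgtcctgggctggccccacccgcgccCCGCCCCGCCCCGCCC
For HDAC9, whose annotation holds 5 starts, a window ahead of the gene (chr7:18086575-18086824) and a window inside it (chr7:18495499-18495748) are shown, both on the plus strand.
HDAC9, upstream start: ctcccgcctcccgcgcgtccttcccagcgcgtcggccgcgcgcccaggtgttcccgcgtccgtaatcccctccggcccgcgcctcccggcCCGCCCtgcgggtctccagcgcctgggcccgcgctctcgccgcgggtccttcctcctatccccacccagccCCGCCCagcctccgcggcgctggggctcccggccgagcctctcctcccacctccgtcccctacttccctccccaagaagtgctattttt
HDAC9, internal start: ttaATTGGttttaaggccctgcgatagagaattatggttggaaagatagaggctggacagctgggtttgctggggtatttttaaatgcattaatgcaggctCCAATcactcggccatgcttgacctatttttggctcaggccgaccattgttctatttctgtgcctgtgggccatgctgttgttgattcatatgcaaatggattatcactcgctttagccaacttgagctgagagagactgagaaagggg
The HDAC7 window is chr12:47819904-47820153 on the minus strand and holds neither box, so it has no capitals. It also lies inside the span of its gene.
HDAC7: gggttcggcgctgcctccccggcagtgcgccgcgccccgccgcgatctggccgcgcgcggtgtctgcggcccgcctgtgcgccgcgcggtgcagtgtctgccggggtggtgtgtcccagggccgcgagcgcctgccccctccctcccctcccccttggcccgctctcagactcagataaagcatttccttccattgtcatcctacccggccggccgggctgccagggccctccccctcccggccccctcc

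The HDAC11 window held 5 GC boxes, 73.6% G and C, and 24 CpG dinucleotides. The upstream window of HDAC9 had 2 GC boxes, 75.2% G and C and 32 CpG, whereas its internal window had 2 CCAAT boxes, 45.2% G and C and 4 CpG. HDAC7 had 75.6% G and C and 28 CpG. Over 35116 promoter windows of the same length, 42.6% held a GC box and 32.0% a CCAAT box, and the median window had 58% G and C and 11 CpG. Of the 19 member windows, 8 held a GC box, 7 a CCAAT box, 1 an E-box (CACGTG, 6.34% of all windows), 1 a CRE core (TGACG, 21.2%), and none the letters TATAAA (10.7%) or the MEF2 pattern (2.36%), CTA and TAG with 4 free bases between them. The windows are those of the annotation, and which HDAC9 start these cells used was not measured. The first 30 bases after the upstream HDAC9 start were in 0 of 29 GENCODE transcripts of the gene. Those after the internal start shown were in 6, and those after another internal start, not shown, in 16. Some windows of HDAC6 and of HDAC9 overlap and share CCAAT boxes, so the windows are not separate units. Those with a CCAAT box belong to HDAC1, HDAC6, HDAC9 and HDAC10. A match is a description of the letters.

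HDAC1 was by far the most abundant member. Per kilobase of exon in vehicle it stood at 109 CPM, followed by HDAC2 at 11.7, HDAC7 at 9.65, HDAC5 at 4.18, HDAC6 at 4.17, HDAC9 at 1.34, HDAC8 at 0.337, HDAC4 at 0.333, HDAC11 at 0.152 and HDAC10 at 0.101. Libraries of HDAC5 and HDAC6, of HDAC8 and HDAC4, and of HDAC11 and HDAC10 overlapped on this scale, so the order inside each of these pairs is not resolved on it. Lengths are the summed exons of the table, which for HDAC8 come to 22888 bases. With the inhibitor HDAC7 (13.4 CPM per kilobase) stood above HDAC2 (12.5) without overlap of libraries, and HDAC11 (0.466) stood in the seventh place, overlapping HDAC4 (0.403). This order of HDAC7 and HDAC2 rests on exon lengths of 9928 and 15333 bases. In CPM without length HDAC2 stayed above HDAC7 with the inhibitor (192 against 133). On that scale HDAC1 had 435 and HDAC2 179 in vehicle. HDAC10 is a special case, since 73.6% of its 4951 exonic bases also belong to other genes and reads over them were not counted. On the 1307 bases it shares with none, its vehicle level was 0.381 ± 0.0501 CPM per kilobase (SD, n = 3), which overlapped the levels of HDAC8 (0.355 ± 0.0186) and HDAC4 (0.346 ± 0.0362), and HDAC11 then came last. On the same scale HDAC5, which also loses reads over shared exons, had 5.50 ± 0.402 CPM per kilobase, with its lowest library above the highest of HDAC6 (4.17 ± 0.0645).

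**Figure D1:**
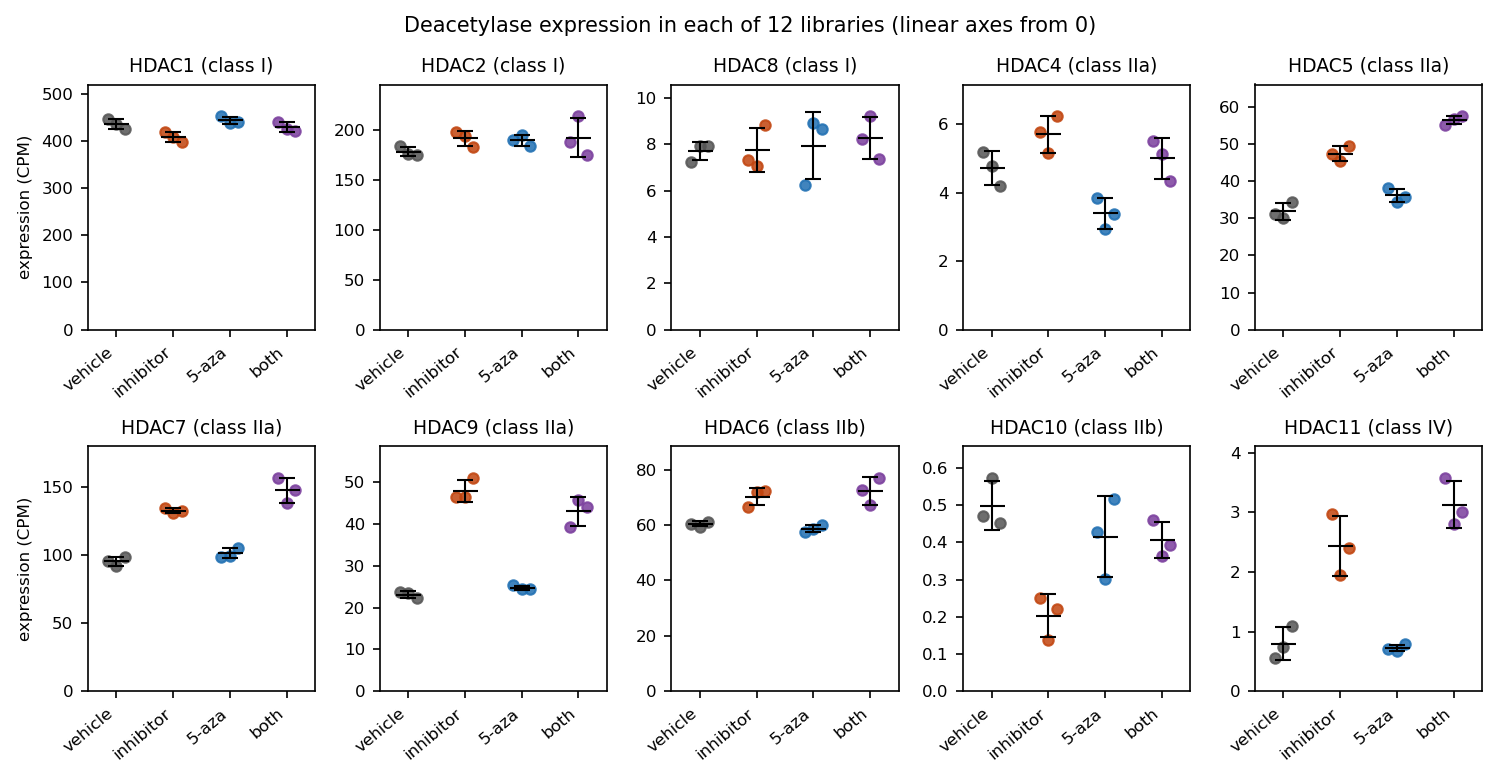
Expression of the 10 deacetylase genes in CPM (vertical axes, linear from 0) in each library of the 4 groups (horizontal axes; 5-aza is 5-azacitidine). Points are libraries, and bars give the mean and SD of 3. In HDAC5, HDAC6, HDAC7, HDAC9 and HDAC11 every inhibitor and combination library lies above every vehicle and 5-azacitidine library.

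Against vehicle, the inhibitor called 5 of the 10 members higher and 1 lower at an adjusted p under 0.05. Of all genes tested 51.3% were called, 26.4% higher and 24.9% lower, so 6 of 10 is near the share of all genes. The median log2 change was 0.25 over the members and 0.00 over all genes. The 3 class I members were not called, 3 of the 4 class IIa members were higher, class IIb was split, and the class IV member was higher.

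HDAC1 (ENSG00000116478, chromosome 1, 32292083 to 32333635, plus strand) had 446, 436 and 424 CPM in vehicle and 418, 409 and 397 CPM with the inhibitor, in the order of replicates 1, 2 and 3. The inhibitor libraries all lay below the vehicle ones, and the fitted log2 difference of -0.09 (95% interval -0.19 to 0.00) missed the threshold (edgeR adjusted p = 0.0978). With 5-azacitidine HDAC1 had 451, 439 and 439 CPM, and with both drugs 440, 424 and 420 CPM, overlapping vehicle in each case. HDAC2 (ENSG00000196591, chromosome 6, 113933028 to 114011308, minus strand), the close paralogue of HDAC1, had 184, 177 and 176 CPM in vehicle, 198, 195 and 184 with the inhibitor, 191, 195 and 184 with 5-azacitidine, and 188, 214 and 176 with both. Inhibitor and vehicle libraries overlapped at their edge. The log2 difference with the inhibitor was 0.10 (95% interval -0.02 to 0.23, edgeR adjusted p = 0.148). It passed in 3 of 23 alternatives, 1 of them the fit of the 2 groups alone (adjusted p = 0.00966, over a range of 0.00893 to 1.0).

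HDAC8 (ENSG00000147099, chromosome X, 72329516 to 72573101, minus strand) deacetylates the cohesin subunit SMC3 and acts outside the co-repressor complexes. It had 7.24, 7.94 and 7.94 CPM in vehicle, 7.32, 7.08 and 8.82 with the inhibitor, 6.26, 8.90 and 8.66 with 5-azacitidine, and 8.21, 9.19 and 7.36 with both. The 4 groups overlapped throughout. The log2 difference with the inhibitor was 0.01, with a 95% interval from -0.25 to 0.26 (edgeR adjusted p = 0.974).

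HDAC9 (ENSG00000048052, chromosome 7, 18086949 to 19002416, plus strand) is a class IIa repressor of MEF2 targets. It had 23.6, 23.5 and 22.3 CPM in vehicle and 46.4, 46.4 and 51.0 CPM with the inhibitor. Every inhibitor library lay far above every vehicle library. HDAC9 rose by 1.05 ± 0.07 on the log2 scale (SE; edgeR adjusted p = 9.07e-13), a larger size of change than that of 86.0% of all genes tested. In the 5-azacitidine cells it had 25.3, 24.5 and 24.5 CPM, and in the combination 39.3, 45.8 and 44.1 CPM, which is above 5-azacitidine alone and below the inhibitor alone in every library. That last difference, -0.16 on the log2 scale (95% interval -0.29 to -0.02), did not pass (edgeR adjusted p = 0.165).

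HDAC5 (ENSG00000108840, chromosome 17, 44076746 to 44123702, minus strand), a signal-responsive class IIa enzyme, had 31.2, 29.9 and 34.4 CPM in vehicle, 47.2, 45.3 and 49.5 with the inhibitor, 38.10, 34.4 and 35.7 with 5-azacitidine, and 55.0, 56.7 and 57.3 with both. The combination libraries were the highest and did not overlap any other group. HDAC5 rose by 0.57 ± 0.06 on the log2 scale with the inhibitor (SE; edgeR adjusted p = 3.47e-08). Of its exonic bases, 24.0% are shared with G6PC3 on the opposite strand. Counting ignored strand and dropped reads over both genes, so the shared stretch adds nothing to either value. G6PC3 itself stood at 42.1 CPM in vehicle and 47.4 CPM with the inhibitor (log2 0.17, edgeR adjusted p = 0.0315).

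HDAC7 (ENSG00000061273, chromosome 12, 47782722 to 47833132, minus strand) is a class IIa enzyme with a known role in lymphocyte development and the most abundant of its class here. Vehicle libraries had 96.1, 92.3 and 98.9 CPM and inhibitor libraries 135, 131 and 132 CPM. The groups were far apart relative to their spread, and HDAC7 rose by 0.47 ± 0.05 on the log2 scale (SE; edgeR adjusted p = 4.51e-08). 5-azacitidine libraries had 98.7, 99.8 and 106 CPM and combination libraries 157, 138 and 148 CPM, so that the combination lay above the inhibitor alone without overlap. HDAC4 (ENSG00000068024, chromosome 2, 239048168 to 239401654, minus strand), the fourth of the class, was low, with 5.19, 4.77 and 4.21 CPM in vehicle, 5.76, 5.15 and 6.23 with the inhibitor, 3.86, 2.95 and 3.39 with 5-azacitidine, and 5.53, 5.13 and 4.36 with both. The inhibitor and vehicle libraries overlapped, and the log2 difference of 0.27 (95% interval 0.00 to 0.54) did not pass (edgeR adjusted p = 0.0862). The 5-azacitidine libraries were below every other library.

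HDAC6 (ENSG00000094631, chromosome X, 48801377 to 48824982, plus strand) deacetylates tubulin and other cytoplasmic proteins. It had 60.5, 59.4 and 61.2 CPM in vehicle, 66.6, 71.8 and 72.2 with the inhibitor, 57.4, 58.7 and 59.8 with 5-azacitidine, and 72.7, 67.2 and 77.0 with both. The inhibitor libraries lay above all vehicle libraries, and HDAC6 rose by 0.22 ± 0.06 on the log2 scale (SE; edgeR adjusted p = 0.00265), the smallest of the called changes. Tested against a fold of 1.2 instead of 0 change it no longer passed (adjusted p = 0.807, within a range of 9.52e-05 to 0.807 over 23 alternatives).

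HDAC10 (ENSG00000100429, chromosome 22, 50245183 to 50251405, minus strand), known as a polyamine deacetylase, gave 17, 21 and 16 counts in vehicle (0.470, 0.573 and 0.452 CPM) and 9, 5 and 8 counts with the inhibitor (0.249, 0.138 and 0.220 CPM). With 5-azacitidine it gave 15, 11 and 19 counts and with both drugs 17, 13 and 14. The inhibitor libraries were the lowest of the 12. HDAC10 fell by 1.29 ± 0.43 on the log2 scale with the inhibitor (SE; edgeR adjusted p = 0.0134), with a 95% interval from -2.16 to -0.41 that shows how little these counts fix. Leaving out vehicle replicate 2 (adjusted p = 0.05) or inhibitor replicate 2 (adjusted p = 0.0673) ended the call, over a range of 0.0132 to 0.0673 in 22 alternatives. Its counts come from the exonic bases that it shares with no other gene, and 55.8% of its exonic bases are shared with MAPK12 on the same strand. MAPK12 stood at 107 CPM in vehicle and 85.7 CPM with the inhibitor (log2 -0.33, edgeR adjusted p = 1.49e-05), and whether reads of MAPK12 bear on the HDAC10 value was not tested.

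HDAC11 (ENSG00000163517, chromosome 3, 13479724 to 13506424, plus strand), which removes long fatty acyl groups and is known as a repressor of IL10, had the largest rise of the 10. Vehicle libraries gave 20, 27 and 39 counts (0.552, 0.737 and 1.10 CPM) and inhibitor libraries 107, 71 and 87 counts (2.97, 1.95 and 2.40 CPM). The lowest inhibitor library was above the highest vehicle library, and HDAC11 rose by 1.61 ± 0.23 on the log2 scale (SE; edgeR adjusted p = 1.74e-06), a size of change above that of 91.6% of all genes. 5-azacitidine libraries gave 25, 25 and 29 counts (0.714, 0.683 and 0.787 CPM) and combination libraries 132, 100 and 107 counts (3.58, 2.80 and 3.01 CPM). Even after the rise its level per kilobase was a small fraction of that of HDAC7.

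**Figure D2:**
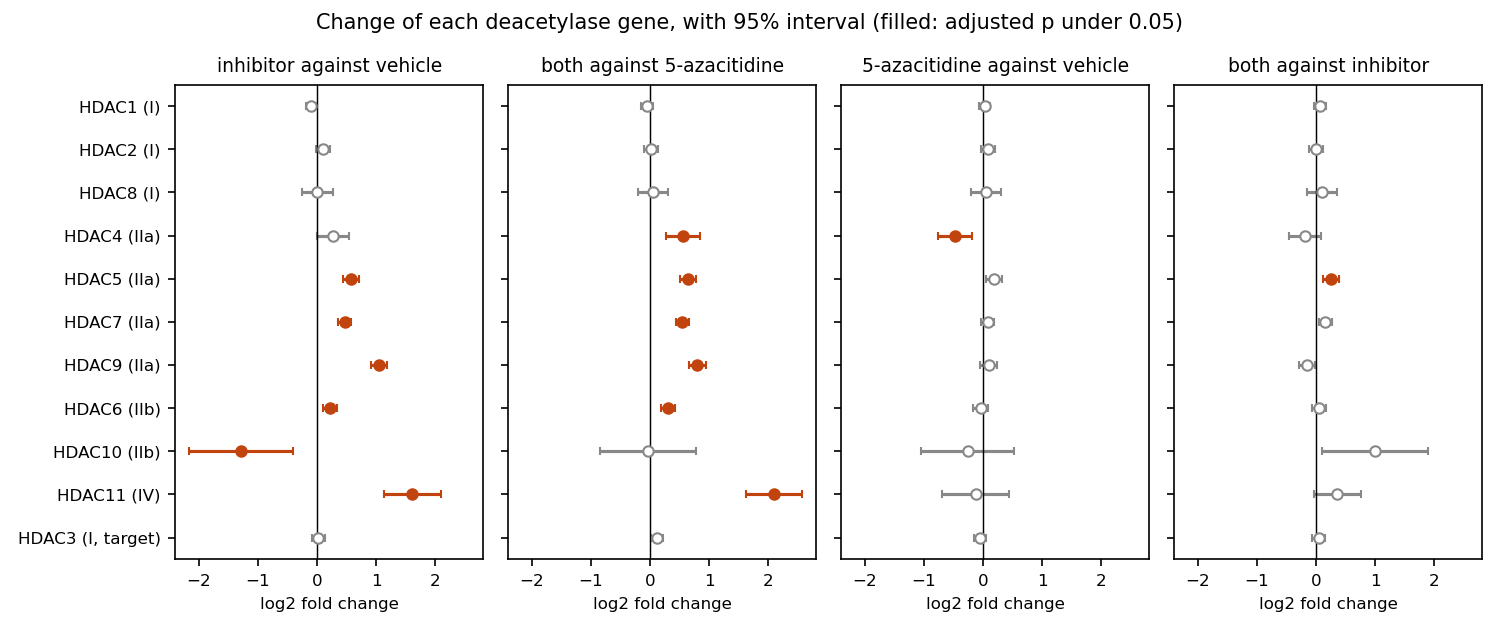
Log2 fold change (horizontal axes) with its 95% interval for the 10 members and HDAC3 (rows, class in brackets) in 4 comparisons (panels). Filled points passed an adjusted p under 0.05 in edgeR. HDAC5, HDAC6, HDAC7, HDAC9 and HDAC11 are filled in both panels that add the inhibitor, and HDAC10 has the widest interval in the first.

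The inhibitor was also added on top of 5-azacitidine, a comparison of the combination with 5-azacitidine alone that shares no library with the one above. It called 6 members higher and none lower, beside 53.8% of all genes called, 28.7% higher and 25.1% lower, and the median log2 change was 0.42 over the members and 0.01 over all genes. HDAC5 rose by 0.64, HDAC6 by 0.30, HDAC7 by 0.54, HDAC9 by 0.80 and HDAC11 by 2.099 on the log2 scale (edgeR adjusted p = 2.82e-09, 7.91e-05, 2.66e-09, 1.7e-10 and 1.59e-08). These are the members called higher by the inhibitor against vehicle. HDAC6 did not pass against the fold of 1.2 (adjusted p = 0.232, within a range of 2.25e-06 to 0.232 over 23 alternatives). The sixth was HDAC4, which rose by 0.56 ± 0.14 (SE; edgeR adjusted p = 0.00124) from the low 5-azacitidine level. HDAC10, lower with the inhibitor alone, had a log2 difference of -0.03 here (95% interval -0.84 to 0.78, edgeR adjusted p = 0.956). HDAC1, HDAC2 and HDAC8 were between -0.05 and 0.05 and did not pass.

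Whether the inhibitor acted differently with and without 5-azacitidine was tested as an interaction. None of the 10 members passed in edgeR, DESeq2 or limma voom, beside 0.716% of all genes in edgeR, and 2 had an unadjusted p under 0.05. These were HDAC9, with an interaction of -0.25 (95% interval -0.45 to -0.05, unadjusted p = 0.0149, edgeR adjusted p = 0.249), and HDAC10, with 1.26 (95% interval 0.06 to 2.45, unadjusted p = 0.0405, edgeR adjusted p = 0.363). The 95% intervals of HDAC5 (-0.12 to 0.26) and HDAC7 (-0.08 to 0.23) were narrow, whereas that of HDAC11 (-0.21 to 1.18) was wide.

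5-azacitidine alone called 1 member, HDAC4, which was lower by a log2 difference of -0.48 ± 0.14 (SE; edgeR adjusted p = 0.03). Among all genes 9.06% were called, 4.31% higher and 4.75% lower, and the median change was 0.04 over the members and 0.00 over all genes. The HDAC4 call did not hold with vehicle replicate 1 left out (adjusted p = 0.145), nor without vehicle replicate 2 (0.0769), 5-azacitidine replicate 2 (0.158) or 5-azacitidine replicate 3 (0.0795), and over 23 alternatives its adjusted p ran from 0.0151 to 0.499. HDAC5 had a log2 difference of 0.18 (95% interval 0.05 to 0.31) that did not pass (edgeR adjusted p = 0.0877). HDAC9 and HDAC2 were above vehicle in each 5-azacitidine library by small margins and did not pass (log2 0.10 and 0.09, edgeR adjusted p = 0.469 and 0.414).

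The combination against vehicle shares its vehicle libraries with the inhibitor and the 5-azacitidine comparisons against vehicle. It shares its combination libraries with the combination against 5-azacitidine. It called 5 members higher and none lower, beside 57.1% of all genes, 29.6% higher and 27.5% lower. The median log2 change was 0.18 over the members and 0.01 over all genes. HDAC11 rose 3.93-fold, HDAC9 1.86-fold, HDAC5 1.77-fold, HDAC7 1.54-fold and HDAC6 1.197-fold (edgeR adjusted p = 3.05e-08, 1.54e-11, 2.28e-11, 1.56e-10 and 0.000392). Against the fold of 1.2 the HDAC6 call was again lost (adjusted p = 0.465, within a range of 2.16e-05 to 0.465 over 23 alternatives). HDAC4 had a log2 difference of 0.08 from vehicle (edgeR adjusted p = 0.625), and HDAC10 one of -0.29 (95% interval -1.08 to 0.50, edgeR adjusted p = 0.544). HDAC2 had a log2 difference of 0.11 that did not pass (edgeR adjusted p = 0.125), though it passed in 3 of 23 alternatives.

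Set against the inhibitor alone, the combination called 1 member, HDAC5, which rose by a further 0.25 ± 0.06 on the log2 scale (SE; edgeR adjusted p = 0.0135). The shares of all genes were 7.34% called, 4.51% higher and 2.83% lower, and the median change was 0.08 over the members and 0.01 over all genes. This HDAC5 call was lost without inhibitor replicate 1 (adjusted p = 0.0598), inhibitor replicate 2 (0.0927) or combination replicate 3 (0.0512), over a range of 0.00438 to 1.0 in 23 alternatives. HDAC7, with a log2 difference of 0.16 (95% interval 0.05 to 0.27), and HDAC11, with 0.36 (95% interval -0.04 to 0.76), did not pass (edgeR adjusted p = 0.0774 and 0.305). HDAC10 was at 0.99 above the inhibitor alone (95% interval 0.09 to 1.89, edgeR adjusted p = 0.184).

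Summed by class, class IIa made up more of the deacetylase transcripts with the inhibitor than without, as a description of the sums. Class IIa (HDAC4, HDAC5, HDAC7 and HDAC9) summed to 156 ± 4.67 CPM in vehicle (SD, n = 3), 234 ± 5.52 in inhibitor cells, 166 ± 3.76 in 5-azacitidine cells and 252 ± 5.47 in the combination. Class I (HDAC1, HDAC2 and HDAC8) summed to 622 ± 14.8, 608 ± 17.0, 641 ± 8.20 and 629 ± 23.2 CPM. The inhibitor libraries lay far above vehicle in class IIa and overlapped vehicle in class I. As shares of the 10 members' summed CPM, class IIa made up 18.5% in vehicle and 25.6% with the inhibitor, and class I 74.1% and 66.5%. Class IIb summed to 60.9 ± 0.870 and 70.4 ± 3.11 CPM, nearly all of it HDAC6. These sums follow long transcripts more than short ones. Taken per kilobase of exon, the share of class IIa was 10.99% in vehicle and 15.9% with the inhibitor.

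**Figure D3:**
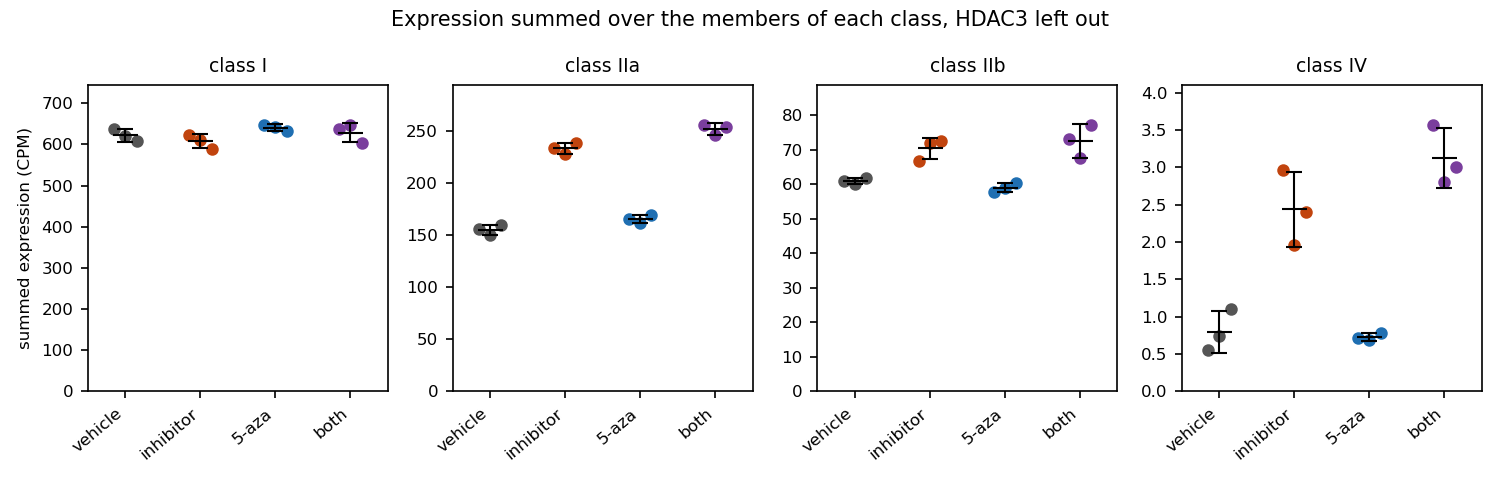
Expression summed over the members of class I, IIa, IIb and IV (panels, HDAC3 left out) in CPM (vertical axes, linear from 0) for each library of the 4 groups. Bars give the mean and SD of 3 libraries. Class I sums overlap between vehicle and inhibitor, while class IIa goes from 156 to 234 CPM.

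The partners through which these enzymes reach chromatin were read from 7 lists, in the inhibitor against vehicle comparison, beside the 26.4% of all genes higher and 24.9% lower. SIN3 complex genes, which house HDAC1 and HDAC2, had 0 of 16 higher and 11 lower with a median log2 change of -0.23. SAP30, a SIN3 subunit, fell by 0.60 (edgeR adjusted p = 3.59e-09), and ING1, which reads histone methylation, fell by 0.46 (edgeR adjusted p = 4.85e-06). NuRD genes had 1 of 13 higher and 9 lower, median -0.35. CHD3, a remodelling ATPase of NuRD, went from 326 to 182 CPM and fell by 0.84 ± 0.05 (SE; edgeR adjusted p = 1.9e-13), and MBD2, which binds methylated DNA, fell by 0.58 (edgeR adjusted p = 6.49e-09). So HDAC1 and HDAC2 were not called while most genes of these lists were lower.

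CoREST genes had 3 of 10 higher and 1 lower, median -0.01. RCOR2, a scaffold of that complex, went from 2.86 to 6.60 CPM and rose by 1.21, and GSE1 rose by 0.44 (edgeR adjusted p = 3.99e-08 and 1.97e-06). MiDAC and MIER genes had 0 of 6 higher and 3 lower, median -0.18. In that list DNTTIP1 fell by 0.20 and MIER1 by 0.24 (edgeR adjusted p = 0.00994 and 0.0249). With the combination against 5-azacitidine, where 28.7% of all genes were higher and 25.1% lower, 6 of 10 CoREST genes were higher and 2 lower (median 0.16). In that comparison 3 of 13 NuRD genes were higher and 6 lower (median -0.07), and 0 of 16 SIN3 genes were higher and 11 lower (median -0.21).

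Partners and kinases of class IIa enzymes had 8 of 26 tested genes higher and 12 lower, median -0.11. The share higher is near that of all genes (26.4%), and the share lower is above that of all genes (24.9%). MEF2C, a transcription factor that these enzymes bind, rose by 0.52 (67.2 to 96.2 CPM, edgeR adjusted p = 5.19e-08). CAMK1D, a calcium-dependent kinase of a family that phosphorylates class IIa enzymes, rose by 0.70 (39.1 to 63.5 CPM, edgeR adjusted p = 4.72e-10). With 5-azacitidine alone CAMK1D fell by 0.94 (to 20.4 CPM, edgeR adjusted p = 2.61e-10), and it had an interaction of 0.52 (edgeR adjusted p = 0.00597), the 1 partner gene called there.

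HDAC6 substrates and partners had 1 of 10 higher and 8 lower, median -0.24. HSP90AA1, a chaperone deacetylated by HDAC6, fell by 0.71 (edgeR adjusted p = 1.99e-10), and TUBA1A, an alpha tubulin, rose by 0.61 (edgeR adjusted p = 6.45e-09). Sirtuins, the NAD-dependent deacetylases of class III, had 1 of 7 higher and 3 lower, median -0.15. SIRT7 fell by 0.76 and SIRT1 by 0.59 (edgeR adjusted p = 7.15e-09 and 7.39e-09), and SIRT5, the 1 higher member, rose by 0.62 (edgeR adjusted p = 2.8e-08, named after its value was seen).

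**Figure D4:**
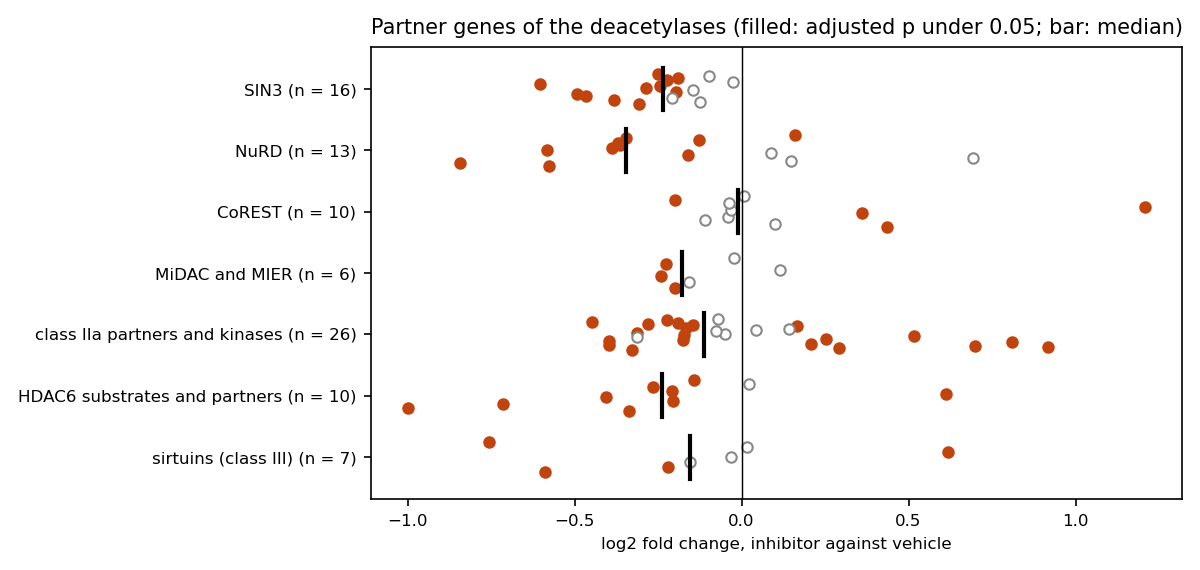
Log2 fold change of partner genes with the inhibitor against vehicle (horizontal axis) in 7 lists (rows, with the number tested). Filled points passed an adjusted p under 0.05 in edgeR, and black bars are medians. SIN3 and NuRD medians lie at -0.23 and -0.35, and that of CoREST at -0.01.

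Genes with the pattern most like the 3 most variable members were ranked by Pearson correlation of log2 CPM over the 12 libraries, as a description. These libraries form 4 treatment groups, so any gene that moves with the inhibitor scores high. Closest to HDAC11 were HES7 (r = 0.989), TIE1 (0.986) and FADS3 (0.985). TIE1 was near 0, with 0.0188 CPM in vehicle and 0.414 CPM with the inhibitor. For HDAC9 they were ADAM28 (0.993) and the B cell Fc receptor-like genes FCRL1 (0.989) and FCRL5 (0.988). FCRL1 went from 39.3 to 94.9 CPM with the inhibitor and FCRL5 from 41.3 to 93.6 CPM. For HDAC10, whose place among the most variable rests on few counts, the values were lower, with LIN37 (0.908), MPPE1 (0.870) and SUDS3 (0.867).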

How the data were processed

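Poly(A) RNA of 12 OCI-Ly7 libraries, 3 in each of 4 groups, was analysed from 1 table of expected counts. Per the file headers, the authors counted reads over the exons of 78892 genes with featureCounts 2.1.1 (release 114 annotation), splitting multi-mapping reads into fractions, ignoring strand and dropping reads over more than 1 gene. Per the submitters' processing notes, cutadapt 5.1 and STAR 2.7.11b were used on GRCh38. The notes name Subread 2.1.2, and the headers leave unclear if counts are of reads or of pairs. The deposited expected counts were whole in 96.9% of values. The header names 16 libraries, 4 of them not analysed here. Symbols matched 61461 gene IDs.

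Counts were rounded and filtered with filterByExpr (17869 genes, 99.9% of counts), scaled with TMM and fitted with edgeR 4.0.16 in R 4.3.3. All 12 libraries shared 1 fit with a mean per group, and two-sided quasi-likelihood tests were adjusted by Benjamini-Hochberg over the 17869 genes, with calls at 0.05. Intervals are 95%. Log2 CPM for the correlations used a prior count of 2. The biological coefficient of variation was 6.05%. Libraries held 35947872 to 36337086 counts, but HDAC10 and HDAC11 rest on few counts.

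Named genes were all members, HDAC3, genes sharing their exons, the 2 of smallest adjusted p in each list, and the 3 genes most like each of the 3 most variable members. The rule for the members uses symbols and no values, but members and lists were chosen with earlier results of these data known, and motifs after the files were seen. Alternatives were DESeq2 1.42.0 and its size factors, limma voom 3.58.1, library totals, other filters, fits of 2 groups, replicate blocks, a 1.2-fold threshold, leaving out each library, and, chosen after seeing the data, leaving out 2 libraries of high mitochondrial share and lengths without shared exons. The fits were tested on simulated data. Titles and library names carry numbers, and over all tested genes same-numbered libraries did not deviate together (correlations -0.06 to 0.07).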

Additional observations from a re-analysis of the deposited data

How the results depend on the processing

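The 60 results of a member in a comparison were recomputed under 23 other settings, which gave 1354 values. Of these, 1325 kept their side of the threshold, 14 lost and 15 gained a call, and 0 called values changed sign. The counts that moved by over 1.5 times were those of the 2 comparisons with 1 call. For 5-azacitidine against vehicle (1 member called) the count was 2 with a filter of 5 CPM in 3 libraries, with DESeq2 and with the library-number replicate block, HDAC5 being added. For the combination against the inhibitor (1 member) it was 2 with that filter and with the library-number replicate block, HDAC7 being added. Both counts were 0 with the 1.2-fold threshold and 0 to 2 when each library was left out in turn. Leaving out libraries gave 5 to 6 members for the inhibitor and for the combination against vehicle, 6 for the combination against 5-azacitidine and 0 for the interaction.

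With the title number as a replicate block, the members called numbered 6 for the inhibitor, 1 for 5-azacitidine and 5 for the combination against vehicle, 6 for the combination against 5-azacitidine, 1 against the inhibitor and 0 for the interaction, as without it. Over all tested genes same-numbered libraries did not deviate together, which does not settle whether the numbers pair them. In every group HDAC1 was highest in replicate 1 and the class IIa sum was lowest in replicate 2. Fitted on the 2 groups alone, the inhibitor against vehicle gave 8 members, HDAC2 and HDAC4 being added. HDAC10 and HDAC11 were not tested under the filter of 5 CPM, where fewer genes enter. HDAC6 lost its call in each of its 3 inhibitor comparisons with the 1.2-fold threshold, and HDAC2 was added in both comparisons with vehicle that include the inhibitor when the 2 libraries of high mitochondrial share were left out. The cause was not tested for these changes, those of HDAC2 included. Low counts limit HDAC10 and HDAC11 to wide intervals.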
